A study of Etheostoma caeruleum with 31 samples.

Results

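The array on which rainbow darter testis RNA was measured carries 18 probes that were added to its design by name, and these probes are described here across the annual reproductive cycle. They are the non-control probes whose names begin with CUST_ and end with PI428058183, and they make up 18 of the 9041 non-control probes and 36 of the 15208 non-control spots, since each has 2 spots per array. Names of this form are given by Agilent's probe design tool to probes that a user uploads. The choice used no measured value.

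The rainbow darter (Etheostoma caeruleum) is a small freshwater fish that breeds once a year in spring. The 31 samples are testes of wild adult males caught by electrofishing at a clean site of the Grand River in Ontario, 1 sample per 1-colour array, and a sample is called a fish here. The groups are spawning fish of May 2011 (n = 7), post-spawning fish of August 2011 (n = 6), recrudescent fish of October 2011 (n = 5), developing fish of January 2012 (n = 6) and pre-spawning fish of March 2012 (n = 7). Each stage is 1 collection in 1 month, so that stage, month and collection cannot be told apart.

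In seasonally breeding fishes the testis releases its sperm at spawning and then regresses, so that somatic and resting germ cells make up more of the tissue. Germ cells proliferate again at recrudescence, pass through meiosis during development and are stored as sperm before the next spawning. RNA from a whole testis reads both the number of cells of each type and the RNA in each cell, and in these bulk samples fewer cells of a type and less RNA per cell cannot be told apart.

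The files used here pair no probe with a gene, so none of the 18 is given a gene name or a function, and the tissue label was not checked against marker genes. In the scanner files 16 of the probes carry only a number as their systematic name. CUST_6 carries the text AR1_P1103982_025 and CUST_17 the word ID. That word is also a common column heading, so whether CUST_17 reads a transcript chosen for the array or a heading taken up with the list is not known, and its values below are those of the spots alone. The numbers come in runs of near neighbours. CUST_1 is 8396643 and CUST_2 is 8396636. CUST_4, CUST_7 and CUST_8 are 8116532, 8116558 and 8116585. CUST_3, CUST_15, CUST_16 and CUST_18 are 8149459, 8149208, 8149161 and 8149804. CUST_5, CUST_9 and CUST_10 are 8727663, 8727714 and 8727693, and CUST_11 to CUST_14 are 8727358, 8727611, 8727543 and 8727417. The labels and file headers do not say what these numbers index.

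Levels are given as the log2 of the background-corrected spot intensity relative to the 75th percentile of its array, averaged over the probe's spots. A level of 0 is therefore the 75th percentile of the array, a difference of 1 is a doubling, and a level serves to compare samples for 1 probe and not to rank probes. The 75th percentile itself was between 2734 and 5093 intensity units on the 31 arrays, and 78.0% to 95.8% of all probes stood well above background per array. Each array was correlated with every array of the same stage, and the median r ran between 0.952 and 0.982, and the lowest 2 values, 0.952 and 0.961, belonged to developing fish 1 and 3. Numbers of fish within a stage are names only. The arrays lay on 4 slides of 7 or 8 arrays, and slide 4 held no recrudescence array.

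Agilent's detection flag placed 8 of the 18 probes well above background on all 31 arrays, and 17 on at least 5 arrays, which entered the test. CUST_1 was well above background on only 4 arrays and was not tested. In limma's moderated F test, 16 of the 17 probes differed among the 5 stages at a Benjamini-Hochberg adjusted p under 0.05, against 87.6% of the 8638 probes tested on the array, so that a stage difference was the rule on this array and not a mark of the added probes. CUST_18 did not pass (adjusted p = 0.772). The weakest passing values were those of CUST_2 (adjusted p = 0.0405), CUST_3 (0.0383) and CUST_4 (0.0312).

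The stage with the highest mean was post-spawning for 8 of the 17 probes, and for 46.5% of all probes tested. The lowest mean fell in spawning for 5 probes, in post-spawning for 4, in recrudescence for 4, in pre-spawning for 3 and in developing for 1, against 22.9%, 28.3%, 18.8%, 18% and 12% of all probes in the same order of stages. Post-spawning testes differed from spawning testes for 13 of the 17 probes, 9 of them higher and 4 lower. On the whole array 74.6% of probes passed this comparison, 46.5% higher and 28.1% lower. The fish of both stages did not overlap for 12 of the 17 probes, against 55.4% of all probes. The median difference was 1.24 over the 17 probes and 0.30 over all probes, and the difference of 0.30 is the shift of the whole array at this scaling (0.05 when arrays are centred on their median).

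Recrudescence differed from post-spawning for 11 probes, 3 higher and 8 lower, against 70.8% of all probes (23.4% higher, 47.4% lower), and all 11 did not overlap, against 54.9% of all probes. The median difference was -1.22 over the 17 probes and -0.35 over all probes. Developing differed from recrudescence for 6 probes, 4 higher and 2 lower, against 42.6% of all probes (27% higher, 15.7% lower). There was no overlap for 3 of the 17, against 22.7% of all probes. With quantile normalisation this split was 2 higher and 2 lower, and scaled to the spike-in probes it was 4 higher and 1 lower. Pre-spawning differed from developing for 10 probes, 2 higher and 8 lower, against 52.4% of all probes (19.3% higher, 33.1% lower). Again 3 of the 17 did not overlap, against 23.8% of all probes. Centring on the median gave 3 higher and 5 lower for this step.

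Pre-spawning against spawning gave 0 calls among the 17 probes by limma's test, against 9.46% of all probes (4.39% higher, 5.07% lower). An unadjusted p under 0.05 was found for 6 of the 17. The share of all probes at that unadjusted cut is not given here, so the 6 cannot be set against the 9.46%. The fish of both stages overlapped for each probe, and 2.41% of all probes had none. The smallest adjusted p-values were those of CUST_4 (0.0558), CUST_5 (0.0576) and CUST_3 (0.0662). Fits with array weights called 2 probes and fits with an intensity trend called 1. Over longer intervals, developing differed from spawning for 10 probes, 8 higher and 2 lower, against 58% of all probes (34.7% higher, 23.3% lower), with no overlap for 4, against 29.3% of all probes. Recrudescence differed from spawning for 6 probes, 4 higher and 2 lower, against 27.9% of all probes (14.8% higher, 13.1% lower), with no overlap for 3, against 13% of all probes. This count was 1 with spike-in scaling and 3 with normexp background correction, without recrudescence fish 2, or without slide 1, 2 or 3. The CUST_16 call (adjusted p = 0.0495) was lost under 34 settings and that of CUST_8 (0.0392) under 17, of which 20 and 9 leave out 1 fish. Developing differed from post-spawning for 12 probes, 4 higher and 8 lower, against 63.1% of all probes (26.7% higher, 36.5% lower), with no overlap for 8, against 40.6% of all probes. Pre-spawning differed from post-spawning for 12 probes, 4 higher and 8 lower, against 73.9% of all probes (27.6% higher, 46.3% lower), with no overlap for 10, against 53% of all probes. Pre-spawning differed from recrudescence for 9 probes, 4 higher and 5 lower, against 29.7% of all probes (13% higher, 16.7% lower), with no overlap for 5, against 13.4% of all probes. This count was 1 without slide 2, which holds 3 of the 7 pre-spawning fish and 1 recrudescent fish, and 3 with spike-in scaling. Leaving out 1 fish gave 6 to 9. The 10 comparisons share arrays, so their calls are not independent of each other.

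Each called change of the steps into post-spawning and into recrudescence had the same sign within every slide that held both stages. CUST_9 was the exception in the steps into developing and into pre-spawning, as given with its values. Over longer intervals, 3 called changes kept their sign on only 3 of 4 slides. They were CUST_9 and CUST_14 in developing over spawning (lowest -0.84 and -0.03) and CUST_16 in pre-spawning over post-spawning (lowest -0.04).

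CUST_5, CUST_8, CUST_10 and CUST_14 had a post-spawning peak, 22.6-fold to 40.6-fold over spawning. For CUST_14, the lowest, median and highest levels were -8.58, -6.53 and -5.61 in spawning fish and -2.10, -1.28 and -0.26 in post-spawning fish. The 5 recrudescent fish were at -5.63, -5.54, -5.26, -5.23 and -4.83. Developing fish had -6.10, -3.88 and -3.21 as their lowest, median and highest, and pre-spawning fish had -8.06, -7.59 and -5.36. All 6 post-spawning fish lay above every fish of the other stages. The post-spawning mean of -1.31 ± 0.66 (SD, n = 6) exceeded the spawning mean of -6.66 ± 1.02 (n = 7) by 5.35 (SE 0.49), a 40.6-fold difference with a limma adjusted p of 7.92e-11. CUST_14 was well above background on only 3 of 7 spawning and 1 of 7 pre-spawning arrays, so the low end of its range is near the limit of detection.

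For CUST_5 the lowest, median and highest levels were -7.60, -6.82 and -6.61 in spawning fish and -2.67, -2.07 and -1.41 in post-spawning fish. In recrudescence the 5 fish had -5.65, -5.06, -5.05, -4.76 and -4.49. The developing fish were at -4.96, -4.39 and -4.11, and the pre-spawning fish at -6.74, -6.41 and -4.75. No post-spawning fish overlapped any other stage, and recrudescent and developing fish lay between the post-spawning fish and every spawning fish. Post-spawning exceeded spawning by 4.78 (SE 0.27), which is 27.4-fold (limma adjusted p = 1.32e-15). Only 3 of the 7 spawning arrays had CUST_5 well above background. Recrudescence was lower than post-spawning by 7.40-fold (adjusted p = 6.88e-10), and pre-spawning was lower than developing by 3.17-fold (adjusted p = 7.66e-06). Developing and recrudescence differed by 0.53, which did not pass (adjusted p = 0.146).

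CUST_10 had lowest, median and highest levels of -7.92, -6.98 and -6.34 in spawning fish and -3.24, -2.19 and -1.76 in post-spawning fish. Recrudescent fish had -6.40, -6.25, -6.02, -5.94 and -5.74, developing fish -6.78, -5.77 and -5.32, and pre-spawning fish -8.22, -7.13 and -6.64. The post-spawning fish stood alone above the rest, and among the other 4 stages only pre-spawning and recrudescence did not overlap. Post-spawning over spawning was 25.5-fold (log2 4.67, SE 0.29, limma adjusted p = 1.07e-14), and recrudescence was 13.3-fold lower than post-spawning (adjusted p = 1.77e-11). Only 2 of the 7 pre-spawning arrays had CUST_10 well above background.

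CUST_8 had lowest, median and highest levels of -6.29, -6.03 and -4.31 in spawning fish and -2.51, -1.04 and -0.47 in post-spawning fish. Its recrudescent fish were at -5.24, -4.90, -4.85, -4.49 and -4.49, its developing fish at -4.51, -3.96 and -3.21, and its pre-spawning fish at -6.20, -5.39 and -4.80. Again the post-spawning fish overlapped no other stage. The highest spawning value, in fish 5, averages spots at -5.64 and -2.97, so that the fish is high on 1 spot only. Post-spawning exceeded spawning 22.6-fold (log2 4.50, SE 0.33, limma adjusted p = 5.76e-13), and recrudescence was 11.6-fold lower than post-spawning (adjusted p = 9.12e-10).

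With normexp background correction and its offset of 50, which compresses dim signal, post-spawning over spawning was 12.6-fold for CUST_14, 8.30-fold for CUST_5, 8.09-fold for CUST_10 and 9.99-fold for CUST_8, each still past the threshold. The size of these peaks thus depends on how background is treated. No difference among these 4 probes was tested. Developing minus recrudescence was 0.87 for CUST_8 (limma adjusted p = 0.0521), 0.96 for CUST_14 (0.157) and 0.13 for CUST_10 (0.763), none past the threshold. In the step into pre-spawning all 4 were lower, by 7.14-fold for CUST_14 (adjusted p = 2.42e-05), 3.00-fold for CUST_8 (0.000216) and 2.43-fold for CUST_10 (0.000471). With normexp these were 2.36-fold for CUST_14, 1.87-fold for CUST_8 and 1.70-fold for CUST_5, and the CUST_10 call was lost (1.24-fold, adjusted p = 0.168). CUST_10 and CUST_14 were well above background on 2 and 1 of the 7 pre-spawning arrays, so these folds rest on signal mostly near background. Developing fish 1 and 3, the arrays least like their stage, were the 2 lowest developing fish for each of the 4 probes. For CUST_14 they were at -6.10 and -5.61 and the other 4 fish between -4.07 and -3.21. Without these 2 arrays CUST_8 and CUST_14 passed in developing against recrudescence, with differences of 1.16 and 1.72. The part of these arrays' difference from their stage in the result was not tested.

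CUST_6 and CUST_7 were also highest in post-spawning, then developing, testes, with a smaller range between stages. For CUST_6 the lowest, median and highest levels were -6.26, -5.59 and -5.32 in spawning and -4.50, -3.96 and -3.50 in post-spawning fish. The 5 recrudescent fish had -5.66, -5.60, -5.30, -5.03 and -5.00, the developing fish -5.04, -4.63 and -4.13, and the pre-spawning fish -5.88, -5.72 and -4.86. Post-spawning fish lay above every spawning, recrudescent and pre-spawning fish but overlapped the developing fish. Post-spawning exceeded spawning 3.49-fold (log2 1.80, SE 0.21, limma adjusted p = 5.37e-09). Developing was then 1.59-fold above recrudescence (adjusted p = 0.0163), and pre-spawning was 1.70-fold below developing (adjusted p = 0.00248). The step into developing did not pass with quantile normalisation (0.0673) or without slide 3 (0.255), nor the step into pre-spawning without slide 3 (0.0623).

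For CUST_7 the post-spawning fish had -4.23, -3.85 and -3.36 as lowest, median and highest, against -6.44, -5.54 and -5.16 in spawning fish, with no overlap. The difference was 3.70-fold (log2 1.89, SE 0.22, limma adjusted p = 9.15e-09). With normexp it was 2.18-fold, and that of CUST_6 was 2.13-fold, both past the threshold. Developing fish, between -4.96 and -4.18, lay above all recrudescent fish, which had -5.65, -5.62, -5.21, -5.06 and -5.06. This difference of 1.59-fold had an adjusted p of 0.0253, and it did not pass without recrudescence fish 2 (0.0718), recrudescence fish 4 (0.0653) or developing fish 6 (0.0627). It also did not pass with quantile normalisation (0.0880) or without slide 2 or slide 3. Pre-spawning was 1.57-fold below developing (adjusted p = 0.0153), a call that quantile normalisation, median centring, normexp (0.0992) or leaving out slide 3 ended.

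CUST_15 and CUST_11 were also highest after spawning, with changes closer to the shift of the whole array. CUST_15 had lowest, median and highest levels of 5.06, 5.10 and 5.38 in post-spawning fish, against 4.27, 4.45 and 4.67 in spawning fish. Its recrudescent fish were at 4.21, 4.46, 4.47, 4.54 and 4.73, its developing fish at 4.14, 4.49 and 4.66, and its pre-spawning fish at 4.34, 4.59 and 4.74. The post-spawning fish thus formed the upper group and the other 4 stages covered 1 common range. The difference of 0.72 over spawning (SE 0.10, 1.65-fold, limma adjusted p = 1.27e-07) was 0.42 above the median of all probes. Scaled to the spike-in probes, the F test of CUST_15 did not pass (adjusted p = 0.0748). Recrudescence and developing against post-spawning did not pass either (0.0524 and 0.142), while the call of post-spawning over spawning was kept.

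CUST_11 was at -1.77, -1.64 and -1.32 (lowest, median, highest) in post-spawning fish and at -2.81, -2.67 and -2.43 in spawning fish. Recrudescent fish had -3.28, -2.75, -2.73, -2.64 and -2.61, developing fish -2.71, -2.32 and -2.18, and pre-spawning fish -5.75, -2.62 and -2.51. Apart from pre-spawning fish 5 at -5.75, fish of every other stage lay between -3.28 and -2.18, below all post-spawning fish. Post-spawning exceeded spawning 2.06-fold (log2 1.04, SE 0.32, limma adjusted p = 0.00471). It did not pass on the first spot alone or scaled to the spike-in probes.

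The value of -5.75 comes from 1 of the probe's 2 spots. On that array the spots read 11.9 and 338 intensity units, which are levels of -8.16 and -3.33. It held 30 probes, of 6121 with 2 spots, whose spots differed by more than 4 on the log2 scale, against a median of 7 and at most 15 on the other arrays. Of the 30 dim spots, 25 lay in 1 patch of the array between rows 17 and 56 and columns 10 and 17, which held 308 non-control spots. The dim CUST_11 spot was the only spot of the 18 probes in this patch. On the second spot alone, the pre-spawning mean of CUST_11 was -2.70 ± 0.30 (SD, n = 7), and pre-spawning minus developing, -0.65 with both spots (limma adjusted p = 0.0934), was -0.30 and passed.

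CUST_13, CUST_16, CUST_17 and CUST_12 were lower after spawning. CUST_13 changed direction at each successive step from spawning to pre-spawning. Its lowest, median and highest levels were -0.79, -0.38 and -0.02 in spawning fish and -2.46, -2.04 and -1.86 in post-spawning fish. The recrudescent fish had -0.22, -0.12, -0.06, 0.17 and 0.22, the developing fish -2.39, -1.58 and -1.22, and the pre-spawning fish -0.95, -0.71 and -0.34.

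Neither post-spawning nor developing fish overlapped spawning, recrudescent or pre-spawning fish for CUST_13, and they overlapped each other. Post-spawning was 3.35-fold below spawning (log2 -1.74, SE 0.16, limma adjusted p = 7.94e-11), and recrudescence was 4.23-fold above post-spawning (adjusted p = 2.09e-11). Developing was 3.26-fold below recrudescence (adjusted p = 5.02e-08), and pre-spawning was 2.04-fold above developing (adjusted p = 5.76e-06). Each of these steps kept its sign within every slide that held both stages.

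CUST_17 had lowest, median and highest levels of -1.51, -1.14 and -0.88 in post-spawning fish, against -0.15, -0.06 and 0.13 in spawning fish. Recrudescent fish were at -0.66, -0.44, -0.44, -0.40 and -0.34, developing fish at -0.74, -0.32 and -0.13, and pre-spawning fish at -0.11, 0.15 and 0.23. The post-spawning fish lay below all others, and the pre-spawning fish lay above all developing and recrudescent fish. Post-spawning was 2.19-fold below spawning (log2 -1.13, SE 0.10, limma adjusted p = 1.59e-11). The steps after it were upward, by 1.64-fold in recrudescence (adjusted p = 8.09e-07) and by 1.40-fold in pre-spawning over developing (adjusted p = 0.000141), of which the step into pre-spawning did not pass with spike-in scaling. Within stages CUST_17 correlated with the log2 of the array's 75th percentile at r = -0.54 over the 31 fish, and CUST_18 at 0.50, and the part of array brightness in their values was not tested.

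CUST_16 had -3.92, -3.53 and -3.34 as lowest, median and highest in post-spawning fish, against -3.20, -2.93 and -2.81 in spawning fish, without overlap. The 5 recrudescent fish had -2.93, -2.80, -2.63, -2.54 and -2.37. Post-spawning was 1.54-fold below spawning (log2 -0.62, SE 0.12, limma adjusted p = 2.07e-05), and recrudescence was 1.92-fold above post-spawning (adjusted p = 1.56e-07). Developing was 1.37-fold below recrudescence (adjusted p = 0.00486), with fish of the 2 stages overlapping.

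CUST_12 was the steadiest of the probes that passed, with all stage means within 0.61. It was at -3.05, -2.65 and -2.43 (lowest, median, highest) in post-spawning fish, against -2.37, -2.23 and -2.20 in spawning fish, which did not overlap. Post-spawning was 1.32-fold below spawning (log2 -0.40, SE 0.11, limma adjusted p = 0.00158). The level stayed low in recrudescence, at -2.87, -2.86, -2.67, -2.64 and -2.63, and recrudescence minus post-spawning was -0.07, which did not pass (adjusted p = 0.593). Developing fish, between -2.34 and -1.92, were 1.52-fold above recrudescent fish (adjusted p = 0.000169). Pre-spawning was 1.23-fold below developing (log2 -0.30, limma adjusted p = 0.0217), or -0.16 after subtracting the median of all probes. This call was lost under 7 settings. Among them were quantile normalisation (-0.17, adjusted p = 0.134), median centring (-0.14, 0.219) and leaving out slide 2, 3 or 4. It also did not pass without developing fish 5 (0.0592) or pre-spawning fish 5 (0.0658).

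CUST_9 was highest in developing testes and varied widely between them. The lowest, median and highest levels were -6.93, -5.64 and -4.07 in spawning fish, -7.60, -5.61 and -5.02 in post-spawning fish and -5.07, -4.18 and -2.46 in pre-spawning fish. Recrudescent fish had -6.13, -6.03, -4.90, -4.12 and -2.38. Developing fish 2, 4, 5 and 6 had -1.75, -0.79, -0.82 and -0.37, above every fish of the other stages, whereas developing fish 1 and 3 had -5.28 and -3.65 and lay among them. Developing was 6.08-fold above recrudescence (log2 2.60, SE 0.78, limma adjusted p = 0.00838). Without slide 3 it was 3.76-fold and did not pass (adjusted p = 0.179), and without developing fish 1 it was 9.44-fold.

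Pre-spawning was 3.40-fold below developing for CUST_9 (log2 -1.77, SE 0.72, adjusted p = 0.04 by limma), a call lost under 15 of the alternative settings. Among them were leaving out any of developing fish 2, 4, 5 and 6 (adjusted p = 0.0688, 0.102, 0.0965 and 0.111) or pre-spawning fish 1, 5, 6 and 7 (0.0605, 0.0821, 0.0757 and 0.0718). Within slides, developing minus recrudescence ran between -0.38 and 3.85 on 3 slides, and pre-spawning minus developing between -3.01 and 1.40 on 4 slides, with 1 slide of opposite sign in each. Without developing fish 1 pre-spawning was 5.28-fold below developing.

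CUST_3 and CUST_4 were dim in most fish and very bright in a few. In pre-spawning testes CUST_3 had levels of -4.20, -3.72, -3.55 and -3.08 in fish 6, 3, 4 and 5, -0.79 in fish 7, -0.37 in fish 1 and 5.71 in fish 2. The 2 spots of fish 2 read 167222 and 165663 intensity units, so both carried the signal. In developing testes fish 1 and 3 were at 3.00 and 0.80 and the other 4 between -6.05 and -4.25. The brightest and dimmest fish of the stage differed 962-fold in pre-spawning and 528-fold in developing testes.

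No such fish was seen in the other stages. CUST_3 ranged between -6.27 and -3.59 in spawning fish (median -4.93) and between -5.03 and -3.29 in post-spawning fish (median -3.40), and recrudescent fish had -6.14, -6.08, -6.06, -4.37 and -4.28. CUST_4 gave the same picture with 5.24 in pre-spawning fish 2 and 2.56 and 0.22 in developing fish 1 and 3. Its other developing fish lay between -6.72 and -4.89 and its other pre-spawning fish between -4.55 and -0.92. Of the 5 fish in which CUST_3 exceeded -1, 4 were on slide 2 (developing fish 1 and pre-spawning fish 1, 2 and 7) and developing fish 3 was on slide 1. On slide 2 the 2 spawning fish, the post-spawning fish and the recrudescent fish were at -5.93, -3.93, -3.29 and -6.08. Slide 2 held 3 of the 7 pre-spawning fish. The part of the slide in the levels of these single fish was not tested. A fit of the stages with slide as a block is given below.

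Between stages this spread left little that passed. With all fish, none of the successive steps passed for either probe, and pre-spawning over recrudescence was the 1 comparison that did. It stood at 3.96 for CUST_3 (SE 1.37, limma adjusted p = 0.0299) and 4.13 for CUST_4 (SE 1.40, adjusted p = 0.0265), with every pre-spawning fish above every recrudescent fish. Neither call held without pre-spawning fish 2 or without recrudescence fish 2, 3 or 5, and that of CUST_3 also not without pre-spawning fish 1. Both were also lost without slide 1, 2 or 3 and with spike-in scaling (limma adjusted p = 0.0687 and 0.0627). With slide as a fixed block the CUST_3 difference was 3.40 and did not pass (limma adjusted p = 0.0503), while the CUST_4 call was kept. The F test of CUST_3 failed without any of spawning fish 1, 6 and 7, recrudescence fish 2, 3 and 5 and pre-spawning fish 1, 2 and 7, and that of CUST_4 without recrudescence fish 2 and 5 and pre-spawning fish 1, 2 and 7. Without slide 2 the adjusted p was 0.333 for CUST_3 and 0.258 for CUST_4. Without developing fish 1 and 3 it was 0.00439 and 0.00281, and pre-spawning over developing then passed, at 3.67 for CUST_3 (adjusted p = 0.00877, against 1.34 with all fish) and 3.89 for CUST_4 (0.00661, against 1.48). These 2 fish are also the brightest developing fish for both probes.

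CUST_2 and CUST_1 were near the limit of detection, and CUST_18 did not differ among the stages by the F test. CUST_2 was well above background on 17 arrays. Its lowest, median and highest levels were -6.89, -6.54 and -5.76 in post-spawning fish, against -8.59, -7.63 and -6.67 in spawning fish. The overlap was of 1 spawning fish, and the difference of 1.24 (SE 0.49) had a limma adjusted p of 0.0248. This call was lost under 8 settings, among them normexp (0.149), median centring (0.0629) and spike-in scaling (0.0558). It also did not pass without spawning fish 6 (0.0558) or post-spawning fish 4 (0.0577). Developing fish, between -7.08 and -5.33, had the highest mean. They were 1.26 above spawning fish (limma adjusted p = 0.0299), a call lost under 13 settings. Recrudescent fish lay between -7.91 and -6.72, and pre-spawning fish between -8.16 and -4.40. The F test of CUST_2 was lost under 22 alternative settings (adjusted p between 0.0518 and 0.194), 13 of them leaving out 1 fish.

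CUST_1 was well above background on 2 of 6 post-spawning arrays, 1 of 6 developing arrays, 1 of 7 pre-spawning arrays and on no spawning or recrudescence array. The measured means were -6.60 ± 0.64 in post-spawning fish (SD, n = 6), -8.00 ± 0.54 in recrudescent fish (n = 5) and -8.35 ± 0.50 in spawning fish (n = 7). Since most post-spawning arrays were themselves not well above background, no fold is given and no difference was tested.

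CUST_18 was well above background on every array and did not pass the F test, its stage means lying within 0.26. The lowest, median and highest levels were 0.84, 1.03 and 2.17 in spawning fish, 0.58, 1.07 and 1.43 in post-spawning fish, 0.65, 0.97 and 2.20 in developing fish and 0.38, 0.84 and 1.58 in pre-spawning fish. The recrudescent fish had 0.85, 0.94, 0.96, 0.99 and 1.14. All stages overlapped, and the highest fish were spawning fish 6 at 2.17 and developing fish 3 at 2.20.

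Whether the probes vary together between fish of a stage was asked by subtracting each stage's mean and correlating what remained over the 31 fish. Of the 136 pairs among the 17 probes tested, 6 passed a permutation test within stages after Benjamini-Hochberg adjustment over the 136 pairs, all of them positive, and 25 had an unadjusted p under 0.05. The same 6 passed with Spearman's rho. An absolute r of at least 0.442, the smallest among them, was reached by 20 of the 136 pairs (14.7%), against 8.34% of all 37303203 pairs of tested probes. This limit was taken from the 136 pairs themselves. The median absolute r was 0.186 over the 136 pairs and 0.174 over all pairs of tested probes. The permutation test was run on the 136 pairs only, so the counts of 6 and 25 have no share of all pairs beside them.

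CUST_3 and CUST_4 followed each other most closely, with Pearson's r = 0.995 and Spearman's rho = 0.981 (both adjusted p = 0.00068 by permutation, resting on the smallest p that the permutations can give, 1e-05). Within stages r was 0.960 in spawning and 0.926 in post-spawning fish, where no fish was bright, and 1.00 in developing and pre-spawning fish, the stages that hold the bright fish. Leaving out the 2 fish farthest from the median of CUST_3 gave 0.989. Their difference varied between fish with an SD of 0.25, while CUST_3 alone varied with an SD of 2.72.

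CUST_6 and CUST_7 had r = 0.920 and rho = 0.906 (both adjusted p = 0.00068 by permutation), and 0.916 without the 2 fish farthest from the median of CUST_6. Within stages r was 0.799 in spawning, 0.959 in post-spawning, 0.973 in developing and 0.980 in pre-spawning fish. An r this high was found in 0.0104% of all probe pairs, and an r of at least 0.9 in 0.0151%. Removing the slide means left r at 0.919 for this pair and at 0.994 for CUST_3 and CUST_4. Both pairs passed under 47 of 48 settings, all those in which they were tested.

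The other pairs were looser. CUST_5 and CUST_14 had r = 0.628 and rho = 0.648 (permutation adjusted p = 0.0147 and 0.0154). Within stages r was -0.15 in spawning fish, and 0.987, 0.952 and 0.894 in post-spawning, developing and pre-spawning fish. CUST_14 was well above background on 3 of 7 spawning and 1 of 7 pre-spawning arrays and on all arrays of the other stages. Leaving out the 2 fish farthest from the median of CUST_5 gave 0.617, and the pair did not pass without pre-spawning fish 6. CUST_5 and CUST_10 had r = 0.601 and rho = 0.571 (permutation adjusted p = 0.0249 and 0.0424), with r between 0.376 and 0.954 in the 4 stages of at least 6 fish, and passed under 36 of 48 settings. Neither pair passed without developing fish 1 and 3 (r = 0.588 and 0.551).

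CUST_12 and CUST_15 had r = 0.604 and rho = 0.631 (permutation adjusted p = 0.0147 and 0.0272), with r between 0.466 and 0.963 within stages. CUST_11 and CUST_15 had r = 0.442 and rho = 0.515 (permutation adjusted p = 0.0147 and 0.0272), with r between 0.427 and 0.926 within stages. Without pre-spawning fish 5, r was 0.618 for CUST_11 and CUST_15 and 0.565 for CUST_12 and CUST_15, and neither passed. The dim CUST_11 spot of this fish, described above, enters the CUST_11 and CUST_15 pair only. Without the 2 fish farthest in the first-named probe r was 0.405 and 0.590. On the second spot alone, which leaves the dim CUST_11 spot out but keeps pre-spawning fish 5, both pairs passed. The second CUST_11 spot of that fish, at -3.33, was still the lowest of its stage. Each of these 2 pairs passed under 40 of 48 settings. Neither passed with median centring, on the first spot alone or without slide 1, 2 or 4. CUST_8, whose stage means followed the same order as those of CUST_5, had r = 0.466 with it, which did not pass (permutation adjusted p = 0.142).

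The stage-centred values of the added probes were also set against the 8621 other probes tested. Of all 37303203 pairs of tested probes, 5638 (0.0151%) had an r of at least 0.9. CUST_9 had 6 others at r of at least 0.9, the highest at 0.991, and CUST_11 and CUST_14 had 3 each. CUST_3, CUST_4, CUST_12, CUST_13 and CUST_15 had 1 each, and the remaining probes had none. The values of CUST_11 include the dim spot of pre-spawning fish 5 described above. With it the SD of CUST_11 was 1.19 in pre-spawning fish, against at most 0.27 in the other stages. Its correlations with the other probes were not computed without that spot, so its count of 3 may rest on it. CUST_18 had 28 probes at r of -0.8 or lower and 7 at 0.8 or above, with no probe at 0.9 or above. CUST_11 had 1 probe at -0.8 or lower and 15 at 0.8 or above. No other added probe had any at -0.8 or lower. The shares of all pairs at -0.8 or lower and at 0.8 or above were not computed. These correlations are over 31 fish that share arrays and scaling, and they are given as a description.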

How the data were processed

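Per the file headers, spot values come from Agilent's Feature Extraction software, version 10.7.1.1. The deposited files give spot intensity on a linear scale, which the authors' scanner software corrected for background and which is not normalised between arrays. RNA was isolated with Trizol and carries the dye Cy3, per the labels. From these files, log2 of the processed intensity minus the array's 75th percentile was computed, 426 outlier-flagged spots were removed (none of the added probes), no spot was saturated, and spots were averaged per probe. Tested probes had 0.5 or more of their spots well above background in 5 or more of 31 arrays. Stages were fitted together with limma 3.58.1 (lmFit, eBayes) in R 4.3.3, with Benjamini-Hochberg adjustment over 8638 probes and a threshold of 0.05. No value was imputed. Pairs of probes were tested by permuting stage-centred values within stages (two-sided, 1e+05 permutations). The fit was tested on simulated data. The fish of a stage are biological replicates per the labels, their numbers are those of the sample titles (the descriptions number them differently), and the number of arrays limits the precision. The rule picks the probes by name and uses no measured value, but the rule and the comparisons were chosen with earlier results of these data known. All 18 probes are named, by the rule that defines them. The authors' processed log2 table was not used here, and alternatives are given in the closing section. No probe sequence was used here.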

Additional observations from a re-analysis of the deposited data

Results flagged for a closer look

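Single fish stood apart from the rest of their stage in 5 of the 90 combinations of probe and stage, by Dixon's 95% limit for the gap to the nearest fish over the stage's range. Chance alone flags about 1 in 20 such groups, and pairs of probes that vary together give flags that are not independent. Pre-spawning fish 2 was high for CUST_3 at 5.71, where the nearest fish was at -0.37, and for CUST_4 at 5.24, where the nearest was at -0.92. Post-spawning fish 5 was low for CUST_3 at -5.03, with the nearest at -3.58. CUST_11 was low in recrudescence fish 1 at -3.28, with the nearest at -2.75, and in pre-spawning fish 5 at -5.75, with the nearest at -2.75. All 5 values counted as well above background, that of CUST_11 in pre-spawning fish 5 on 1 of its 2 spots, and the cause of each was not tested.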

How the results depend on the processing

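Over the probes' single comparisons and F tests under all alternatives, 8739 values kept their side of the threshold, 238 lost the threshold and 87 gained it. No comparison called in the main fit or in the alternative changed sign. Signs of comparisons called in neither were not checked. Of the counts of probes, that of pre-spawning against spawning (0) was 2 with quantile normalisation, 1 with median centring, 2 with array weights, 1 with an intensity trend and 2 without developing fish 1 and 3. Leaving out these 2 fish, the single-spot settings and all settings for the order of stages were chosen after seeing the data. Requiring a probe to be well above background on all 31 arrays leaves 8 of the probes to test, of which 7 differed among the stages, 7 in post-spawning over spawning, 6 in recrudescence over post-spawning and 4 in pre-spawning over developing. In the main fit these tests were passed by 87.6%, 74.6%, 70.8% and 52.4% of all probes, in the same order. The shares of all probes under this filter are not given here. Without slide 3 the counts were 3 for developing over recrudescence and 6 for pre-spawning over developing. Neighbouring stages in the order of means differed in 18 cases over the 17 probes, and in 11 with spike-in scaling. The all-array filter gave 11 cases over its 8 probes, a count that cannot be set against the 18. Under that filter 2 neighbours passed that had not in the main fit. They were pre-spawning and post-spawning for CUST_12 (limma adjusted p = 0.0464) and developing and post-spawning for CUST_13 (0.0472).

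The 6 pairs varying together were 3 with median centring, 63 with spike-in scaling (which leaves each array's brightness in the values), 3 of 28 with the all-array filter, 2 without slide 2, 3 without slide 3 and 2 on the first spot alone. Leaving out 1 fish gave 13 to 16 probes differing among stages, 12 to 13 in post-spawning over spawning, 11 to 11 in recrudescence over post-spawning, 5 to 8 in developing over recrudescence, 8 to 10 in pre-spawning over developing, 0 to 2 in pre-spawning over spawning, 16 to 21 neighbouring stages and 4 to 8 pairs. The 4 pairs were without pre-spawning fish 5.

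With the replicate number as a block, pre-spawning against spawning had 1 call and 12 pairs passed. By the titles' numbers, 9 of 57 same-number pairs of different stages correlated above 0.1 (r between -0.22 and 0.20). Of the 31 arrays, 3 correlated best with an array of their own number among those of other stages. Differently numbered pairs were not counted, so these values cannot decide whether the numbers pair fish. The authors' processed table was not run as an alternative for these probes. The causes of these changes were not tested.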
